A study of Homo sapiens with 40 samples.

Results

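Keratins are the intermediate filament proteins of epithelial cells. The members described here were chosen by symbol as the stress keratins KRT6A, KRT6B, KRT16 and KRT17 and the simple epithelial keratins KRT7, KRT8, KRT18 and KRT19, and 7 of these 8 genes, 3 stress and 4 simple keratins, had a row among the 12655 genes counted. KRT6B had no row and was not analysed here. All 7 passed the filter on low counts in both cell lines. The study sequenced RNA of 2 cell lines, FaDu (hypopharyngeal tumour) and Kyse30 (a squamous carcinoma of the oesophagus), both carrying the photoconvertible fluorescent protein Dendra2 and both labelled wildtype. Cells were grown as spheroids in type I collagen for 72 h, in 5 groups of 4 libraries per line. The first group had serum-free medium alone. Another pair of groups had 9 nM epidermal growth factor (EGF), and their cells were sorted after photoconversion of invasive areas into a non-invasive and an invasive fraction. The remaining groups had 9 nM EGF with 10 µg/mL cetuximab, an antibody against the receptor for EGF, or with 100 nM AZD6244, an inhibitor of the kinase MEK downstream of that receptor.

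These groups set limits on the comparisons. The serum-free, cetuximab and MEK inhibitor libraries were from unselected spheroid cells, whereas the EGF libraries were from sorted fractions. Treatment and sorting can therefore not be told apart between them. A rise, fall or response with EGF below is the difference of sorted non-invasive EGF cells from unselected serum-free cells. The titles name a non-invasive and an invasive EGF fraction, but a second label calls both photoconverted invasive cells, and the titles were followed here. Each line is 1 culture lineage with Dendra2, and the labels do not say that the 4 libraries of a group came from separate cultures, so p-values measure the spread between libraries, which may be technical. In bulk RNA, fewer cells of a type and less RNA per cell cannot be told apart.

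Each keratin filament is built from pairs of one type I (acidic) and one type II (basic) keratin. KRT8 and KRT18 form the pair of simple, single-layered epithelia, with KRT7 and KRT19 as a further type II and type I partner, and are commonly raised in carcinomas of squamous origin. KRT6A and KRT6B with KRT16 and KRT17 are low in resting interfollicular epidermis and are induced in keratinocytes at wound edges and by EGF receptor signalling, which is why they are called stress keratins. Squamous epithelium of the throat and oesophagus normally relies on other pairs, KRT5 with KRT14 or KRT15 in basal cells and KRT4 with KRT13 in the layers above.

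In the GENCODE release 29 annotation of GRCh38, the type II members lie in the keratin cluster of chromosome 12: KRT7 at 52232520-52252186 on the plus strand, KRT6A at 52487174-52493257 and KRT8 at 52897187-52949954 on the minus strand. KRT18, a type I keratin, lies at 52948871-52952901 on the plus strand of the same chromosome, and its start overlaps that of KRT8 by 1084 bases on opposite strands. The strand setting of the counting is not given in the sources used here, so reads from the shared 1084 bases could be assigned to neither gene or to the wrong one. Both genes are read out at their other ends, at which they do not overlap. The other type I members, KRT19 at 41523617-41528308, KRT16 at 41609778-41615899 and KRT17 at 41619441-41624842, lie on the minus strand of chromosome 17.

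The KRT6 genes are close copies, and the last 90 coding bases show how close. The sequences below are from the ninth and last exon of each gene, 5′ to 3′ on the minus strand of GRCh38 chromosome 12, with capitals where a base differs from KRT6A. They are KRT6A at chr12:52487723-52487812, KRT6B at chr12:52447193-52447282 and KRT6C at chr12:52469065-52469154.
KRT6A: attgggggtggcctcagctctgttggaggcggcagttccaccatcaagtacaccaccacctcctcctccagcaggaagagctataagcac
KRT6B: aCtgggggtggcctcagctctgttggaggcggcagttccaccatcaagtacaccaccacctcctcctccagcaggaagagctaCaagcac
KRT6C: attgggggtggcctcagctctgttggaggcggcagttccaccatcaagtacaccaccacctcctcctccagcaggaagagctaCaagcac
KRT6B differed from KRT6A at 2 of these 90 bases and KRT6C at 1. Over the whole coding part of 1692 bases, KRT6A was 97.5% identical to KRT6B and 97.9% to KRT6C. The reads of these libraries come from the 3′ end of the transcript. There the copies part: over the last 300 transcript bases, identity of KRT6A was 51.8% with KRT6B, with a longest shared run of 13 bases, and 85.02% with KRT6C, with a longest shared run of 30 bases. KRT6C had no row either. KRT16 and KRT17 shared 72.6% of their aligned coding bases and 51.6% over the last 300 bases. Of the 2 KRT18 pseudogenes with rows, KRT18P8 was 88.8% and KRT18P10 95.1% identical to KRT18 over their aligned length, with longest shared runs of 65 and 86 bases, so reads of KRT18 could be split between these rows. Adding their counts to those of KRT18 changed no call of a member.

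Libraries held 463124 to 5669262 counts. Invasive replicate 1 of Kyse30 was the shallowest and had 5281 genes with a count, against 11631 or more in each of the other 39 libraries. With Kyse30 non-invasive replicates 1 and 3 it stood apart also in the nuclear RNA MALAT1, which took 6.27% to 9.63% of counts in these 3 libraries and at most 3.26% in every other. Tests that use the Kyse30 EGF fractions are given also without these 3 libraries for the called members and the gene lists, and levels, ratios and correlations are over all libraries unless stated. Mitochondrial genes took 14.3% to 15.8% of counts in the serum-free FaDu libraries and 7.504% to 11.5% in the non-invasive ones, and 19.7% to 23.8% against 8.22% to 19.3% in Kyse30. Their part in the results was not tested. All 6 squamous markers (KRT5, TP63, KRT14, SFN, DSG3 and PERP) had a row. Their summed level was 2174 to 3795 CPM (counts of a gene scaled to library size) in FaDu and 751 to 2414 CPM in Kyse30. Within this sum KRT5 and KRT14 were near 0 in Kyse30. KRT14 was also near 0 in FaDu in serum-free medium and with the MEK inhibitor, at 0.00304% and 0.0145% of keratin counts. Of 6 fibroblast, 4 leukocyte and 3 endothelial markers, 1 of each list had a row (COL1A1, CD68 and CDH5), with at most 24.7, 53.7 and 34.6 CPM. The 53.7 CPM of CD68 was in invasive replicate 1 of Kyse30, the shallow library, and its part in the results was not tested.

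Levels are given in CPM after scaling by edgeR's trimmed mean of M values (TMM), separately within each line. Because the 3′ protocol gives about 1 read position per transcript whatever its length, CPM needs no scaling by transcript length. Reads shared with close copies could still be lost or split to a different extent for each gene. Levels, shares and ratios of different genes therefore compare only roughly. Values after ± are the SD over the 4 libraries for a level and the standard error for a log2 fold change. A gene was called at an adjusted p under 0.05 from the quasi-likelihood test of edgeR, adjusted by Benjamini-Hochberg over all genes tested, 12131 in FaDu and 11976 in Kyse30.

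The lines differed in which keratins took the largest share of keratin counts. In serum-free FaDu spheroids KRT17 was the leading keratin, at 23.8% of the counts of all 16 keratin genes with a row, followed by KRT19 at 19.4%, KRT18 at 12.6% and KRT8 at 11.8%. In serum-free Kyse30 spheroids KRT19 led with 32.3%, followed by KRT18 with 27.7%, the mucosal keratin KRT13 with 16.3% and KRT8 with 9.07%, and KRT17 took 0.00902%. In invasive FaDu cells KRT18 took 46.0%, KRT17 23.1%, KRT8 20.8% and KRT19 4.34% of keratin counts. In invasive Kyse30 cells KRT18 took 47.4%, KRT8 27.0%, KRT19 20.9% and KRT6A 2.13%. In FaDu with EGF and MEK inhibitor, KRT17 took 40.4%. Keratins as a whole made up 0.647 ± 0.0346% of all counts in FaDu with cetuximab and 1.13 ± 0.270% in invasive Kyse30 cells, the lowest and the highest group mean.

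**Figure D1:**
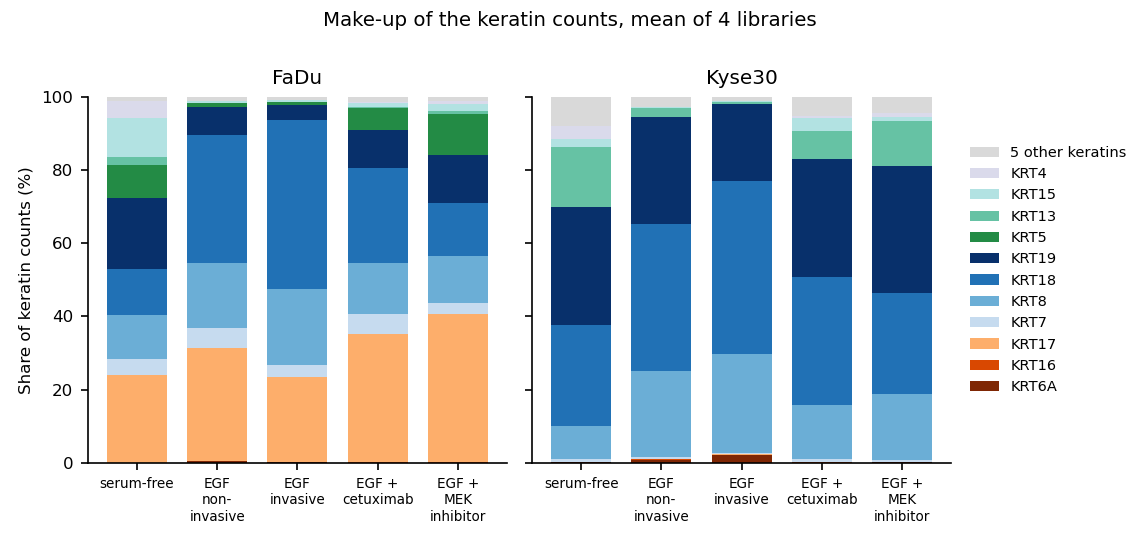
Stacked bars give each keratin gene's share (%) of all keratin counts, as the mean over the 4 libraries of a group, for FaDu (left) and Kyse30 (right). The orange block of KRT17 is visible in FaDu alone, and in both lines KRT8 and KRT18 together take their largest share in the invasive cells.

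Between serum-free groups, 5 of the 7 members differed between the lines in a fit over all 40 libraries (12652 genes tested). KRT6A and KRT18 were higher in Kyse30, where 21.5% of all genes were called higher, and KRT17, KRT7 and KRT8 were lower, where 22% of all genes were called lower. KRT17 fell from 2005 ± 46.1 CPM in FaDu to 0.635 ± 0.287 CPM in Kyse30, which rested on 7 counts over 4 libraries (log2 fold change -11.53 ± 0.47, edgeR adjusted p = 1.5e-22). KRT7 had 383 ± 21.3 CPM in FaDu and 50.03 ± 10.5 CPM in Kyse30 (log2 fold change -2.95 ± 0.28, edgeR adjusted p = 1.1e-11). For KRT18 the log2 difference was 0.89 ± 0.19 and for KRT8 -0.64 ± 0.19. KRT16 (1.30 ± 0.59) and KRT19 (0.48 ± 0.20) did not pass the test over all libraries. Both were called higher in Kyse30 when the fit left out the 3 libraries that stood apart, none of them serum-free. The values were then 1.31 ± 0.48 for KRT16 and 0.49 ± 0.15 for KRT19 (edgeR adjusted p of 0.019 and 0.0049).

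With EGF, members of both families were called, in both directions in FaDu and only higher in Kyse30. In non-invasive FaDu cells against serum-free, KRT6A, KRT8 and KRT18 rose and KRT16 and KRT19 fell, which is 3 of 7 members higher where 25.3% of all genes were called higher, and 2 of 7 lower where 24.7% were. With 7 members, these FaDu counts are not far from the shares over all genes. The median log2 fold change of the 7 was 0.21, against -0.02 over all genes. In Kyse30, KRT6A, KRT8 and KRT18 rose, 3 of 7 where 8.1% of all genes were called higher, and no member fell, where 4.76% did. Without the 3 libraries that stood apart, KRT19 rose as well in Kyse30, which makes 4 of 7 where 13.6% of all genes were higher and 10.1% lower. With DESeq2's size factors in place of TMM, the share of Kyse30 calls that were higher moved from 63.0% to 51.8%, and the median over all genes moved by -0.11 on the log2 scale. KRT6A, KRT8 and KRT18 stayed called with that scaling.

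Each inhibitor was compared with the non-invasive EGF cells. With cetuximab, KRT6A, KRT8 and KRT18 were lower than in non-invasive cells in FaDu, 3 of 7 where 4.93% of all genes were lower, and no member was higher, where 3.64% were. In Kyse30, KRT6A and KRT8 were lower with cetuximab, 2 of 7 where 3.08% of all genes were lower and 1.85% higher. With the MEK inhibitor, KRT6A, KRT7 and KRT18 were lower in FaDu and KRT16, KRT17 and KRT19 were higher, 3 of 7 in each direction where 14.9% of all genes were lower and 14.8% higher. In Kyse30, KRT6A, KRT8 and KRT18 were lower with the MEK inhibitor, 3 of 7 where 2.91% of all genes were lower and 1.65% higher. Without the 3 libraries that stood apart, KRT18 and KRT19 joined the members lower with cetuximab in Kyse30 (4 of 7, where 5.94% of all genes were lower and 3.8% higher), and KRT19 joined those lower with the MEK inhibitor (4 of 7, where 5.84% were lower and 3.94% higher). DESeq2's size factors moved the share of calls that were higher in Kyse30 from 37.5% to 50.3% with cetuximab and from 36.3% to 49.2% with the MEK inhibitor, where the median over all genes moved by 0.11. These comparisons and that of EGF with serum-free share the non-invasive libraries, so their directions are not independent of each other.

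Against serum-free, some keratins were called in the inhibited spheroids. In FaDu with cetuximab, KRT6A and KRT18 were above serum-free, 2 of 7 where 22.7% of all genes were higher. KRT19 was below, 1 of 7 where 21.1% of all genes were lower. These cetuximab counts were near the shares over all genes. In FaDu with the MEK inhibitor, KRT6A and KRT17 were above, 2 of 7 where 10.8% of all genes were higher. KRT7 was below, 1 of 7 where 8.63% were lower. In Kyse30, KRT8 alone, 1 of 7, was above serum-free with cetuximab (1.88% of all genes higher, 1.25% lower). It was also the 1 member above serum-free with the MEK inhibitor (2.29% higher, 1.61% lower). MEK inhibitor against cetuximab gave 3 of 7 members higher in FaDu, KRT16, KRT17 and KRT19, where 8.54% of all genes were higher and 11.2% lower. In Kyse30 no member was called between the inhibitors by edgeR, where 0.593% of all genes were higher and 0.585% lower, and KRT18 and KRT16 had the smallest adjusted p from edgeR, 0.72 and 0.84. None had an unadjusted p under 0.05.

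Invasive FaDu cells differed from non-invasive FaDu cells in KRT8 and KRT18. Both rose, 2 of 7 members where 0.659% of all genes were higher, and no member fell, where 2.34% did. In Kyse30 no member passed the test, where 0.0668% of all genes were higher and 0.342% lower. KRT6A, KRT8, KRT17 and KRT18 had an unadjusted p under 0.05 there, and DESeq2 called KRT17 and limma KRT6A. Without the shallow library, KRT6A, KRT8 and KRT18 were higher in invasive Kyse30 cells, 3 of 7 where 0.729% of all genes were higher and 1.37% lower. Without all 3 libraries that stood apart, which left 3 invasive and 2 non-invasive libraries, no member was called, where 0.165% of all genes were higher and 0.461% lower.

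**Figure D2:**
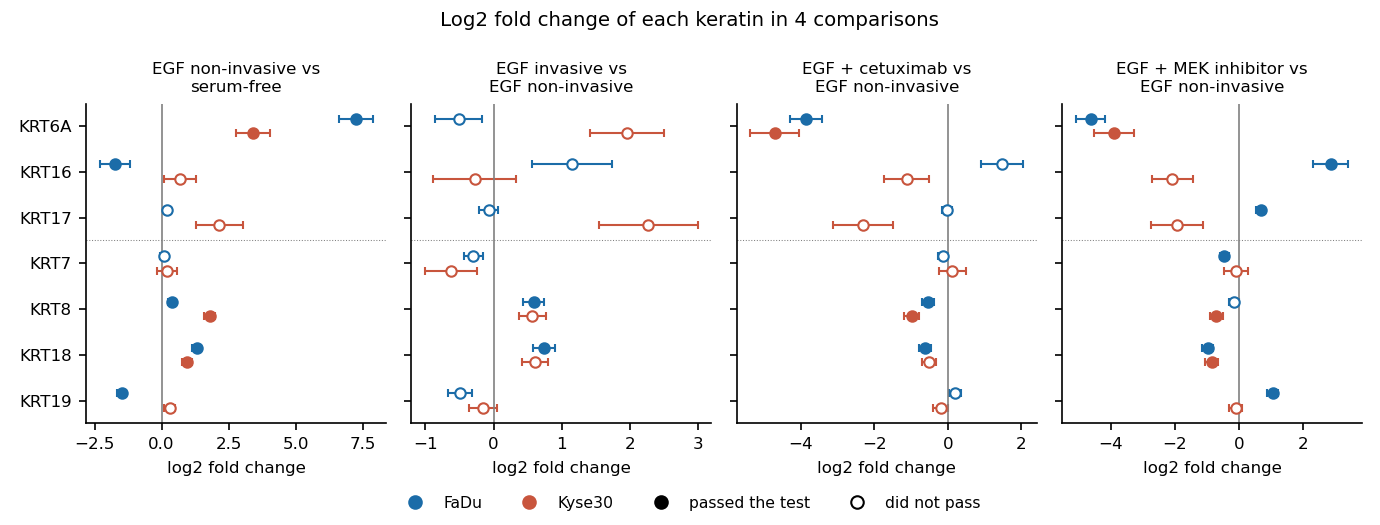
Each panel gives the log2 fold change (horizontal axis, axes differ in range) of the 7 keratins in 1 comparison, with bars of 1 standard error, FaDu in blue and Kyse30 in red. Filled points passed the test. KRT6A lies far to the right with EGF and far to the left with either inhibitor in both lines. With the MEK inhibitor, KRT16, KRT17 and KRT19 lie to the right of 0 in FaDu and passed the test. Their Kyse30 values lie to the left of 0 and did not pass. The FaDu value of KRT6A against serum-free rests on 2 serum-free counts.

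KRT6A, the type II stress keratin of wound-edge and activated keratinocytes, had the largest response of the 7 to EGF in both lines. In serum-free FaDu spheroids, replicates 1 to 3 had no KRT6A count, which allows up to 0.704 to 1.23 CPM, and replicate 4 had 0.504 CPM, from 2 counts. The non-invasive FaDu libraries had 18.8, 27.3, 34.8 and 22.7 CPM, and the invasive ones 15.1, 15.1, 15.3 and 26.8 CPM. With cetuximab KRT6A had 2.46, 2.52, 0.201 and 2.06 CPM, and with the MEK inhibitor 0.705, 1.61, 1.03 and 0.638 CPM. Both EGF fractions thus lay above every serum-free and every inhibited FaDu library. Over the group, the ratio of non-invasive to serum-free was 184 with a 95% interval of 50.7 to 1527 that covers counting error only (edgeR adjusted p = 4.0e-10). Against non-invasive cells KRT6A fell by 3.86 on the log2 scale with cetuximab and fell by 4.63 with the MEK inhibitor, with edgeR adjusted p of 7.2e-07 and 1.5e-08. What remained was still above serum-free, by a ratio of 12.3 (counting interval 3.14 to 106) with cetuximab and 7.22 (1.71 to 64.5) with the MEK inhibitor. The second of these calls (edgeR adjusted p = 0.045) was lost without MEK inhibitor replicate 2 or 3, or serum-free replicate 1, 2 or 3, with edgeR adjusted p of 0.071 to 0.13, and with limma (adjusted p = 0.13). Serum-free replicate 4 held both counts, so without it the serum-free level was 0 in all 3 libraries. Invasive and non-invasive FaDu cells did not differ in KRT6A beyond their spread (log2 fold change -0.51 ± 0.35, edgeR adjusted p = 0.5).

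In Kyse30, KRT6A started higher and ended higher. The serum-free libraries had 4.76, 6.10, 1.96 and 16.1 CPM, the non-invasive ones 96.3, 45.5, 40.4 and 121 CPM, and the invasive ones 45.1, 245, 382 and 494 CPM. All 8 EGF libraries were above all 12 others. The group means ran from 2.87 ± 2.40 CPM with cetuximab over 5.09 ± 2.39 with the MEK inhibitor and 7.23 ± 6.16 in serum-free medium, which overlapped, to 75.9 ± 39.5 and 291 ± 193 in the non-invasive and the invasive cells. KRT6A rose with EGF (log2 fold change 3.41 ± 0.62, edgeR adjusted p = 5.1e-04), and the value without serum-free replicate 4 was 4.12. It was lower with cetuximab (log2 fold change -4.71 ± 0.67, edgeR adjusted p = 8.3e-05, or -5.48 without cetuximab replicate 2) and with the MEK inhibitor (log2 fold change -3.90 ± 0.63, edgeR adjusted p = 3.0e-04). KRT6A stayed called in these 3 comparisons without the 3 libraries that stood apart, at 3.57 ± 0.62 with EGF, -4.85 ± 0.65 with cetuximab and -4.04 ± 0.62 with the MEK inhibitor (edgeR adjusted p of 0.0010, 4.5e-04 and 8.3e-04). Neither inhibited group differed from serum-free by the test. Invasive replicate 1, the shallow library, had 45.1 CPM from 21 counts and lay within the non-invasive range, while the other 3 invasive libraries, at 374 ± 125 CPM (SD, n = 3), lay above it. The invasive cells were not called over the 4 libraries (log2 fold change 1.96 ± 0.55, edgeR adjusted p = 0.11), were called without that library (2.29 ± 0.50, edgeR adjusted p = 0.029), and were not called without the 3 libraries that stood apart (2.16 ± 0.62, edgeR adjusted p = 0.17).

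KRT16, the type I partner of KRT6 in activated keratinocytes, did not follow KRT6A. It was low everywhere, with group means of 1.27 to 9.46 CPM in FaDu and 4.06 to 17.4 CPM in Kyse30. In FaDu the serum-free libraries had 2.45, 6.57, 1.70 and 6.05 CPM, the non-invasive ones 0.448, 1.40, 2.01 and 1.21 CPM, and those with MEK inhibitor 15.9, 9.22, 7.44 and 5.32 CPM. KRT16 thus fell with EGF (log2 fold change -1.74 ± 0.57, edgeR adjusted p = 0.013), a call lost without non-invasive replicate 1 or serum-free replicate 2 (both -1.44, edgeR adjusted p of 0.0503 and 0.059). It was higher with the MEK inhibitor than in non-invasive cells (log2 fold change 2.85 ± 0.55, edgeR adjusted p = 2.7e-04), with no overlap between these groups. The values with cetuximab, 4.25, 1.58, 5.02 and 3.27 CPM, did not differ from the non-invasive ones by the test (log2 fold change 1.48 ± 0.57, edgeR adjusted p = 0.11), nor did those of invasive cells (log2 fold change 1.15 ± 0.59, edgeR adjusted p = 0.34). MEK inhibitor against cetuximab was just inside the threshold (log2 fold change 1.37 ± 0.49, edgeR adjusted p = 0.0497) and was lost without cetuximab replicate 1, 2 or 4 or MEK inhibitor replicate 1, 2 or 3 (1.04 to 1.49, edgeR adjusted p of 0.056 to 0.17), with no filter on low counts (edgeR adjusted p = 0.051) and with only these groups in the fit (edgeR adjusted p = 0.062). In Kyse30 no comparison of KRT16 passed. Its largest value there was the lower level with the MEK inhibitor (log2 fold change -2.08 ± 0.64, edgeR adjusted p = 0.064), and non-invasive replicate 1, 1 of the libraries that stood apart, had 45.3 CPM against 6.99 to 8.88 in the others. Without those libraries it was -0.96 ± 0.51 (edgeR adjusted p = 0.29).

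KRT17, a type I keratin of stressed and hair follicle keratinocytes and of many squamous carcinomas, separated the lines. In FaDu it ranked between 14 and 43 among the 12655 genes in every group. The serum-free FaDu libraries had 2034, 2008, 2040.4 and 1939.7 CPM, the non-invasive ones 2126, 2449.6, 2585 and 2110.4 CPM, and the invasive ones 1728, 2496, 2263 and 2329.5 CPM. Although KRT6A rose with EGF, the change of KRT17 with EGF did not pass (log2 fold change 0.21 ± 0.14, edgeR adjusted p = 0.21) and passed only when these groups alone were fitted. Under MEK inhibition KRT17 had 3622, 3059, 4118 and 4009 CPM, above every other FaDu library. It rose against non-invasive cells (log2 fold change 0.68 ± 0.14, edgeR adjusted p = 5.2e-04), against serum-free (log2 fold change 0.88 ± 0.14, edgeR adjusted p = 3.8e-05) and against cetuximab (log2 fold change 0.70 ± 0.14, edgeR adjusted p = 5.9e-04). With cetuximab it had 2859.6, 2469.7, 1924 and 1848 CPM, which overlapped the non-invasive and the invasive libraries.

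In Kyse30, KRT17 was near the floor of detection outside the EGF fractions. Serum-free libraries had 1 to 3 counts each, cetuximab libraries 1 to 5, and MEK inhibitor libraries 0 to 8. The non-invasive libraries had 6.92, 0.866, 1.92 and 2.48 CPM, from 4 to 22 counts. The invasive libraries had 25.8, 5.28, 15.1 and 15.6 CPM, from 12 to 46 counts, and the first of these values is from the shallow library. The ratio of non-invasive to serum-free was 4.35 with a counting interval of 1.94 to 11.5, but against the spread between libraries it was not called (log2 fold change 2.16 ± 0.87, edgeR adjusted p = 0.11). Invasive against non-invasive was not called by edgeR either (log2 fold change 2.27 ± 0.73, edgeR adjusted p = 0.17), while DESeq2 gave an adjusted p of 0.037. The values without the 3 libraries that stood apart were 1.33 ± 1.01 with EGF (edgeR adjusted p = 0.37) and 2.81 ± 0.96 in invasive cells (edgeR adjusted p = 0.21). No other comparison of KRT17 in Kyse30 was called by edgeR.

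**Figure D3:**
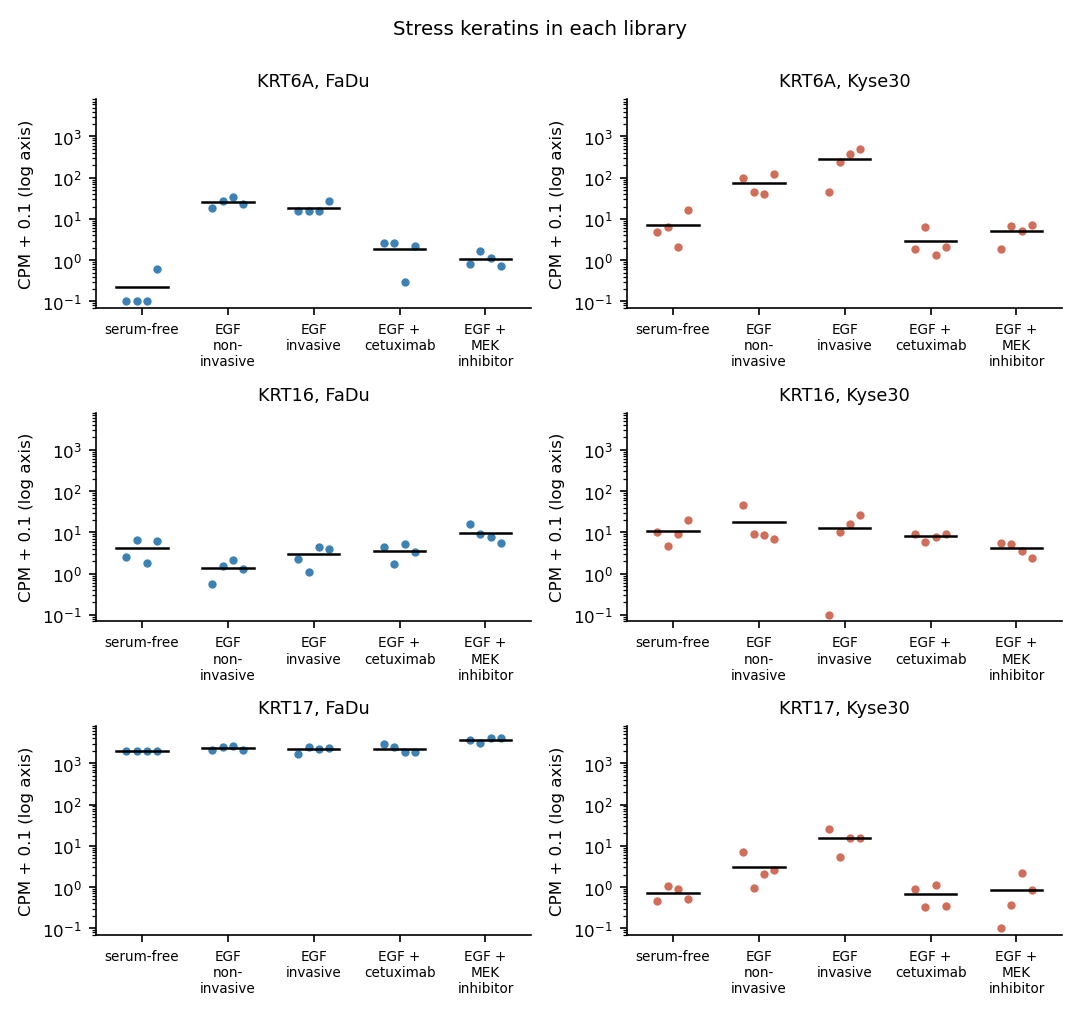
Points are single libraries and black lines group means, for KRT6A, KRT16 and KRT17 (rows) in FaDu and Kyse30 (columns). The vertical axis is CPM with 0.1 added, on a log axis, so a library with no count sits at 0.1. KRT6A is higher in every library of both EGF fractions than in any other library of its line, KRT16 reaches at most 45.3 CPM, and KRT17 lies at 1728 to 4118 CPM in FaDu and at most at 25.8 CPM in Kyse30.

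KRT18, the type I simple keratin, rose with EGF in both lines and rose again in invasive FaDu cells. The serum-free FaDu libraries had 1027, 1085, 1087 and 1046 CPM, the non-invasive ones 2282, 3233, 2516 and 2499 CPM, and the invasive ones 4628, 4419.9, 4296 and 4219 CPM. These 3 groups did not overlap. The rise with EGF was log2 fold change 1.31 ± 0.16, edgeR adjusted p = 2.6e-07, and that of invasive over non-invasive cells log2 fold change 0.74 ± 0.16, edgeR adjusted p = 0.009. Leaving out any 1 of the 8 libraries kept the invasive call, with values of 0.69 to 0.85 and an edgeR adjusted p of at most 0.040. MEK-inhibited FaDu libraries had 1329.8, 1435, 1172 and 1394 CPM of KRT18, which was lower than in non-invasive cells (log2 fold change -0.98 ± 0.16, edgeR adjusted p = 4.4e-05). With cetuximab it had 1183, 2616, 1400.3 and 1641 CPM, lower than non-invasive (log2 fold change -0.62 ± 0.16, edgeR adjusted p = 0.014) but higher than serum-free (log2 fold change 0.69 ± 0.16, edgeR adjusted p = 0.0012, or 0.41 without cetuximab replicate 2). Cetuximab replicate 2 had the highest of these 4 values and lay within the non-invasive range, and without it the log2 fold change against non-invasive was -0.90. The call was lost without cetuximab replicate 3 (-0.56) or non-invasive replicate 2 (-0.51), with edgeR adjusted p of 0.054 and 0.076, and with only these groups in the fit (-0.64, edgeR adjusted p = 0.084). MEK-inhibited cells were not called against serum-free for KRT18 (log2 fold change 0.33 ± 0.16, edgeR adjusted p = 0.16), although these groups did not overlap.

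In Kyse30, KRT18 was the keratin with the highest mean share of keratin counts in both EGF fractions and with cetuximab. The serum-free libraries had 1797, 2031, 1803 and 2291 CPM, the non-invasive ones 3508, 3758, 3420.2 and 4693 CPM, and the invasive ones 3519, 5851, 6714 and 7322 CPM. KRT18 rose with EGF (log2 fold change 0.96 ± 0.19, edgeR adjusted p = 0.0014), and it was lower with the MEK inhibitor (log2 fold change -0.86 ± 0.19, edgeR adjusted p = 0.0079). That call was lost without non-invasive replicate 4 (-0.74) or MEK inhibitor replicate 2 (-0.84), with edgeR adjusted p of 0.068 and 0.052. KRT18 stayed called without the 3 libraries that stood apart, both with EGF (1.10 ± 0.16, edgeR adjusted p = 9.2e-06) and with the MEK inhibitor (-0.996 ± 0.16, edgeR adjusted p = 8.6e-05). The lower level with cetuximab did not pass (log2 fold change -0.52 ± 0.19, edgeR adjusted p = 0.13) but did without the libraries that stood apart (-0.66 ± 0.16, edgeR adjusted p = 0.0080). Invasive replicate 1 had 3519 CPM, within the non-invasive range, and the other 3 invasive libraries lay above every non-invasive one. The invasive difference was log2 fold change 0.61 ± 0.19, edgeR adjusted p = 0.17 over all libraries, 0.79 ± 0.16 (edgeR adjusted p = 0.0068) without the shallow library and 0.65 ± 0.17 (edgeR adjusted p = 0.084) without the 3 that stood apart.

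KRT8, the type II partner of KRT18, also rose with EGF in both lines and in invasive FaDu cells. In FaDu the serum-free libraries had 1001, 880.5, 1147 and 965 CPM, the non-invasive ones 1311, 1594, 1233 and 1143 CPM, and the invasive ones 2216, 1655, 2174 and 1912 CPM. The invasive libraries lay above all others, while serum-free and non-invasive libraries overlapped. The rise with EGF (log2 fold change 0.40 ± 0.15, edgeR adjusted p = 0.03) was lost without non-invasive replicate 2 or serum-free replicate 1, 2 or 4 (0.30 to 0.41, edgeR adjusted p of 0.056 to 0.13), and DESeq2 gave an adjusted p of 0.05003. The rise in invasive cells (log2 fold change 0.59 ± 0.15, edgeR adjusted p = 0.03) was lost without replicate 1, 3 or 4 of either fraction (0.53 to 0.61, edgeR adjusted p of 0.055 to 0.12). With cetuximab KRT8 had 765, 1012, 789.7 and 1057 CPM, lower than in non-invasive cells (log2 fold change -0.54 ± 0.15, edgeR adjusted p = 0.023), a call lost without cetuximab replicate 1 or 3 or non-invasive replicate 2 (-0.51 to -0.44, edgeR adjusted p of 0.053 to 0.11). Under MEK inhibition it had 862, 1172, 1153 and 1529.8 CPM and did not differ from non-invasive cells by the test (log2 fold change -0.16 ± 0.15, edgeR adjusted p = 0.45).

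In Kyse30 the response of KRT8 to EGF was larger. The serum-free libraries had 760.2, 528, 617 and 682 CPM, the non-invasive ones 2044, 2361, 1799 and 2774 CPM, and the invasive ones 2033, 3450.3, 3689 and 4155 CPM. The rise with EGF was log2 fold change 1.79 ± 0.21, edgeR adjusted p = 1.7e-06. It was 2.00 ± 0.16 without the 3 libraries that stood apart (edgeR adjusted p = 1.3e-09). With cetuximab KRT8 had 816, 1274, 1121 and 1335 CPM, and with the MEK inhibitor 1389.6, 1383, 1376 and 1338 CPM. Both groups lay below every non-invasive library and above every serum-free one. Cetuximab against non-invasive gave log2 fold change -0.98 ± 0.20, edgeR adjusted p = 0.0045 and against serum-free log2 fold change 0.81 ± 0.20, edgeR adjusted p = 0.025. The second of these was lost without cetuximab replicate 2, 3 or 4 or serum-free replicate 2 or 3 (0.73 to 0.82, edgeR adjusted p of 0.054 to 0.10). The first was -1.18 ± 0.17 (edgeR adjusted p = 2.7e-05) without the 3 libraries that stood apart. The MEK inhibitor against non-invasive gave log2 fold change -0.71 ± 0.20, edgeR adjusted p = 0.041, which was lost with DESeq2's size factors (-0.60, edgeR adjusted p = 0.079) and without any 1 of the libraries except non-invasive replicate 3 (-0.75 to -0.58, edgeR adjusted p of 0.052 to 0.21). It stayed called without the 3 libraries that stood apart, at -0.90 ± 0.17 (edgeR adjusted p = 5.5e-04). Against serum-free the MEK inhibitor gave log2 fold change 1.08 ± 0.20, edgeR adjusted p = 0.003. For invasive cells the value was log2 fold change 0.57 ± 0.20, edgeR adjusted p = 0.21 over all libraries, 0.75 ± 0.17 (edgeR adjusted p = 0.016) without the shallow one and 0.55 ± 0.18 (edgeR adjusted p = 0.19) without all 3.

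The summed level of a list of glandular or simple epithelium markers other than keratins ran against KRT8 and KRT18 with EGF. All 6 genes of that list (EPCAM, MUC1, CDH1, ELF3, CLDN4 and CLDN7) had a row, and ELF3 is also in the list of keratin gene regulators. The most abundant genes can set such a sum, and it does not give the direction of each marker. Their summed level in FaDu was 1311 to 1462 CPM in serum-free, 604 to 806 CPM in non-invasive and 405 to 565 CPM in invasive libraries, and 501 to 987 CPM with cetuximab and 912 to 1299.9 CPM with the MEK inhibitor. In Kyse30 it was 3649 to 4004 CPM in serum-free, 1909.9 to 3001.5 CPM in non-invasive and 1672 to 2642 CPM in invasive libraries, and 1769 to 2507 CPM with cetuximab and 2569.7 to 4029.6 CPM with the MEK inhibitor. Their part in the results was not tested.

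**Figure D4:**
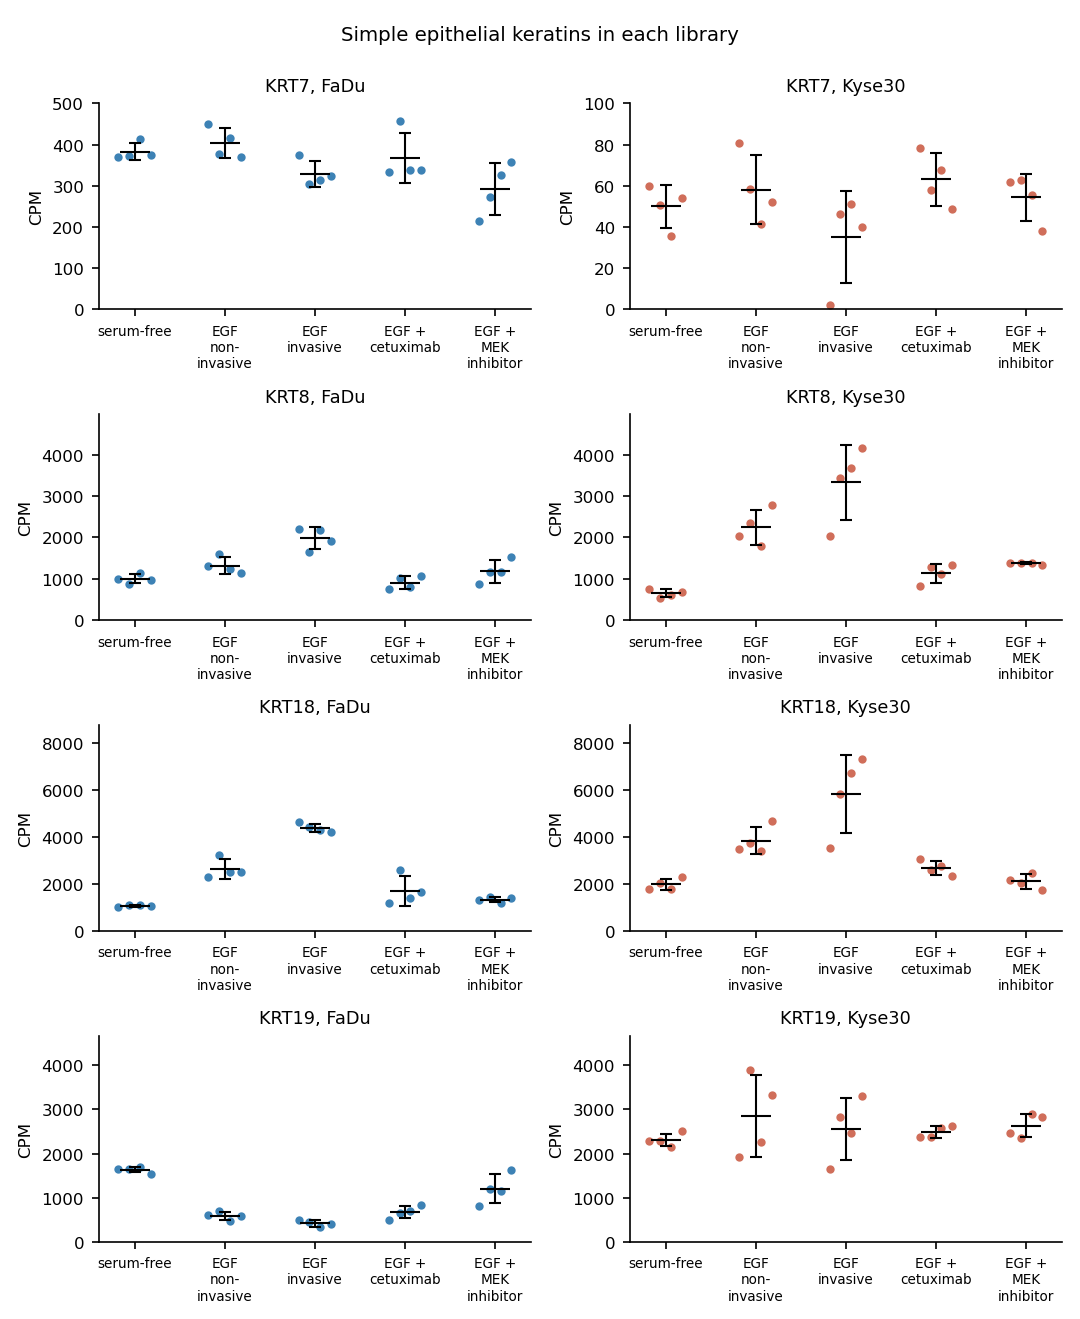
Points are single libraries in CPM, with the group mean and a bar of 1 SD, for KRT7, KRT8, KRT18 and KRT19 (rows) in FaDu and Kyse30 (columns); axes start at 0, and those of KRT7 differ between the lines. KRT18 steps up from serum-free to non-invasive to invasive cells in FaDu without overlap, while KRT19 in FaDu steps down with EGF and is higher again with the MEK inhibitor.

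The proportion of the filament partners was not the same in all groups. KRT8 counts per KRT18 count were 0.941 ± 0.102 in serum-free FaDu, 0.504 ± 0.0498 in non-invasive cells and 0.453 ± 0.0567 in invasive cells. They were 0.560 ± 0.122 with cetuximab and 0.886 ± 0.196 with the MEK inhibitor, whose libraries, at 0.649 to 1.10, overlapped the serum-free ones at 0.811 to 1.06. In Kyse30 the direction was the opposite, from 0.331 ± 0.0702 in serum-free medium to 0.582 ± 0.0421 in non-invasive, 0.571 ± 0.0170 in invasive and 0.659 ± 0.0915 in MEK-inhibited cells. With cetuximab it was 0.434 ± 0.131, with libraries at 0.268 to 0.573 that overlapped the serum-free ones at 0.260 to 0.423. The shallow invasive library was within this invasive range, which was 0.549 to 0.590. These ratios were not tested, and they describe counts of 2 genes in the same libraries. Reads lost to close copies of either gene could shift their level.

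**Figure D5:**
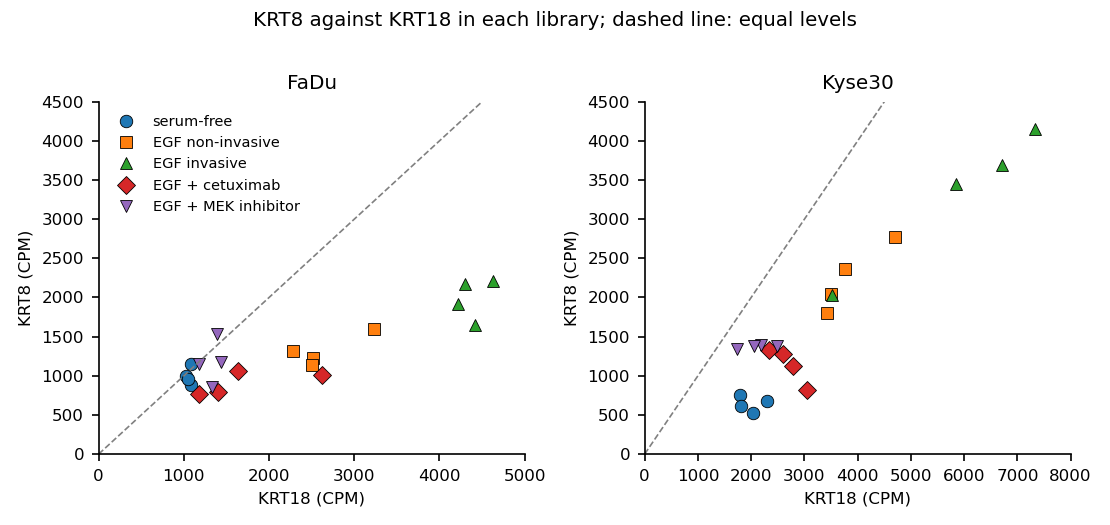
Each point is a library, with KRT18 (CPM) on the horizontal and KRT8 (CPM) on the vertical axis, FaDu on the left and Kyse30 on the right, and marker shapes giving the group. Serum-free FaDu libraries lie near the dashed line of equal levels and EGF libraries move far to the right of it, whereas in Kyse30 all libraries lie under the line.

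KRT19, the smallest type I keratin, went the other way from KRT18 in FaDu. The serum-free libraries had 1652, 1644, 1695 and 1545 CPM, the non-invasive ones 595, 690.2, 473 and 577 CPM, and the invasive ones 496, 437, 327 and 397 CPM. KRT19 fell with EGF (log2 fold change -1.49 ± 0.17, edgeR adjusted p = 9.7e-08), and the further difference in invasive cells did not pass (log2 fold change -0.49 ± 0.17, edgeR adjusted p = 0.13). With cetuximab the libraries had 493, 652, 691 and 838 CPM, which overlapped the non-invasive ones and lay below serum-free (log2 fold change -1.29 ± 0.17, edgeR adjusted p = 1.1e-06). Under MEK inhibition they had 818, 1204, 1159.6 and 1634 CPM, above non-invasive cells (log2 fold change 1.04 ± 0.17, edgeR adjusted p = 4.2e-05) and above cetuximab (log2 fold change 0.85 ± 0.17, edgeR adjusted p = 7.7e-04). The remaining difference from serum-free was log2 fold change -0.44 ± 0.17, edgeR adjusted p = 0.071, and it was called without MEK inhibitor replicate 4, which had the highest of the 4 values. None of the KRT19 calls in FaDu was lost when any 1 library was left out.

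In Kyse30, KRT19 stayed between group means of 2305 CPM in serum-free and 2848 CPM in non-invasive cells, with no call over all libraries. The non-invasive libraries were spread from 1912 to 3893 CPM, and the lower ones, replicates 1 and 3 at 1912 and 2252 CPM, are those that stood apart. Without the 3 libraries, KRT19 was higher in non-invasive than in serum-free cells (0.66 ± 0.14, edgeR adjusted p = 0.0014), and lower with cetuximab (-0.55 ± 0.14, edgeR adjusted p = 0.015) and with the MEK inhibitor (-0.45 ± 0.14, edgeR adjusted p = 0.046). These are log2 fold changes against 2 remaining non-invasive libraries.

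KRT7, a type II keratin of glands and simple ducts, was called in 2 comparisons within the lines, both in FaDu. Its FaDu group means lay between 292 CPM with the MEK inhibitor and 403 CPM in non-invasive cells, and those of Kyse30 between 34.9 CPM in invasive and 63.1 CPM in cetuximab-treated cells. MEK-inhibited FaDu libraries had 214, 272, 325 and 358 CPM, all below the non-invasive 449, 378, 416 and 371 CPM. The difference was log2 fold change -0.46 ± 0.14, edgeR adjusted p = 0.012. The lower level against serum-free (log2 fold change -0.39 ± 0.14, edgeR adjusted p = 0.047) was lost when any library except MEK inhibitor replicate 4 was left out (-0.42 to -0.25, edgeR adjusted p of 0.053 to 0.17) and with only these groups in the fit (edgeR adjusted p = 0.062). No comparison of KRT7 passed in Kyse30. The lowest Kyse30 value, 2.15 CPM, was 1 count in the shallow library, and the other 3 invasive libraries had 45.8 ± 5.67 CPM (SD, n = 3).

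The differences between the lines were tested as such, in the fit over 40 libraries, and are given as the Kyse30 log2 fold change minus that of FaDu. For EGF against serum-free, 2 of 7 members had a higher effect in Kyse30 than in FaDu, where 9.48% of all genes did, and 1 had a lower one, where 6.2% did. The effect on KRT8 was larger in Kyse30 by 1.40 ± 0.27 (edgeR adjusted p = 2.9e-04). That on KRT19 was higher by 1.80 ± 0.29 (edgeR adjusted p = 1.9e-05), and KRT19 fell in FaDu and was not called in Kyse30. That on KRT6A was smaller in Kyse30 (log2 fold change -3.79 ± 1.29, edgeR adjusted p = 0.039), which rests on the 2 serum-free FaDu counts and was lost without FaDu non-invasive replicate 2 or 3, FaDu serum-free replicate 1, 2 or 3, Kyse30 non-invasive replicate 2 or 3, or Kyse30 serum-free replicate 4 (-3.77 to -3.09, edgeR adjusted p of 0.053 to 0.12), and with limma (adjusted p = 0.0501). Without FaDu serum-free replicate 4, which held both counts, it was -6.16. KRT16 (log2 fold change 2.42 ± 0.87, edgeR adjusted p = 0.051) and KRT17 (log2 fold change 1.91 ± 0.69, edgeR adjusted p = 0.054) were just outside the threshold by edgeR and inside it by DESeq2 (both adjusted p = 0.02). For KRT18 the difference was -0.34 ± 0.27 and did not pass. The differences without the 3 libraries that stood apart were 1.58 ± 0.23 for KRT8, 2.13 ± 0.23 for KRT19 and -3.68 ± 1.26 for KRT6A (edgeR adjusted p of 1.8e-06, 4.7e-09 and 0.037), and those of KRT16 and KRT17 were 1.30 ± 0.77 and 1.10 ± 0.77 (0.25 and 0.35).

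For the MEK inhibitor against non-invasive cells, 3 of 7 members had a lower effect in Kyse30, where 2.83% of all genes did, and none a higher one, where 2.27% did. These were KRT16 (log2 fold change -4.91 ± 0.87, edgeR adjusted p = 2.6e-04), KRT17 (log2 fold change -2.58 ± 0.61, edgeR adjusted p = 0.0077) and KRT19 (log2 fold change -1.15 ± 0.29, edgeR adjusted p = 0.013), the members that were higher with the inhibitor in FaDu. Without Kyse30 non-invasive replicate 1 KRT16 gave -3.81 and stayed called. The KRT17 difference was -1.77 (edgeR adjusted p = 0.14) without the 3 libraries that stood apart, -1.82 (edgeR adjusted p = 0.093) without Kyse30 non-invasive replicate 1 alone and -3.71 without Kyse30 MEK inhibitor replicate 3, and its Kyse30 side rests on 12 MEK inhibitor and 42 non-invasive counts. In the fit without all 3 libraries, KRT16 gave -3.78 ± 0.76 and KRT19 -1.48 ± 0.23 (edgeR adjusted p of 9.3e-04 and 2.6e-05), and KRT8 was called as well (-0.72 ± 0.23, edgeR adjusted p = 0.049). For cetuximab no member differed between the lines by edgeR, where 0.751% of all genes were higher and 0.561% lower in Kyse30, 1 member, KRT17, differed by DESeq2, and 2 members, KRT16 and KRT17, had an unadjusted p under 0.05. For invasive against non-invasive cells, KRT17 had a higher effect in Kyse30 (log2 fold change 2.25 ± 0.48, edgeR adjusted p = 0.025), where 0.142% of all genes did and 0.0395% had a lower one. This call was lost without FaDu non-invasive replicate 2 or 3, FaDu invasive replicate 1 or 2, Kyse30 non-invasive replicate 2, 3 or 4, or Kyse30 invasive replicate 3 or 4 (1.89 to 2.31, edgeR adjusted p of 0.051 to 0.082), it was 2.97 without Kyse30 non-invasive replicate 1 and 2.86 ± 0.52 (edgeR adjusted p = 0.0062) without the 3 libraries that stood apart, and limma gave an adjusted p of 0.13. The invasive effects on KRT8 and KRT18 differed between the lines by -0.03 ± 0.27 and -0.14 ± 0.27, which did not pass.

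The other keratins of these cells mostly fell with EGF. Of the 9 other keratin genes with a row, 7 were tested in each line. With EGF, 5 of 7 fell in FaDu, where 24.7% of all genes did, and 1 rose, where 25.3% did, with a median log2 fold change of -3.31 over the 7, against -0.02 over all genes. Among them were the mucosal type II keratin KRT4 (-9.14 ± 0.64, edgeR adjusted p = 3.7e-09) and the basal type I keratin KRT15 (-4.78 ± 0.32, edgeR adjusted p = 5.7e-10). The one that rose was the basal type I keratin KRT14 (5.34 ± 0.71, edgeR adjusted p = 6.8e-07). KRT14 started near the floor of detection, at 0 to 0.00932% of keratin counts in the serum-free FaDu libraries. In non-invasive FaDu cells it took 0.166% of keratin counts. In Kyse30, 4 of 7 fell (4.76% of all genes) and none rose (8.1%), with a median of -2.03 against 0.03 over all genes, again with KRT4 (-6.86 ± 0.48, edgeR adjusted p = 6.5e-10) and KRT15 (-2.03 ± 0.30, edgeR adjusted p = 4.9e-05) among them. Leaving out the 3 libraries that stood apart, 5 of 7 fell, where 10.1% of all genes did, with KRT4 at -6.66 ± 0.55 and KRT15 at -2.43 ± 0.33 (edgeR adjusted p of 7.7e-08 and 2.0e-05). With the MEK inhibitor, 5 of 7 were higher than in non-invasive cells in FaDu, where 14.8% of all genes were higher and 14.9% lower, among them KRT5, the basal type II keratin (3.76 ± 0.36, edgeR adjusted p = 3.9e-07), and KRT4 (6.90 ± 0.65, edgeR adjusted p = 4.1e-07), and KRT14 was lower (-3.18 ± 0.54, edgeR adjusted p = 6.2e-05). With cetuximab 5 of 7 were higher in FaDu, where 3.64% of all genes were, and 3 of 7 in Kyse30, where 1.85% were, and none was lower (4.93% and 3.08%). The Kyse30 count was 4 of 7 without the 3 libraries (3.8%). By edgeR no other keratin passed between invasive and non-invasive cells of either line, with the 3 libraries or without them.

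Genes commonly raised with KRT6 and KRT16 in activated keratinocytes mostly rose with EGF. Of 14 such genes tested in FaDu, 12 rose with EGF, where 25.3% of all genes did, and 2 fell, where 24.7% did, with a median log2 fold change of 2.67 against -0.02 over all genes. FSCN1, the actin bundling protein fascin (3.17 ± 0.14, edgeR adjusted p = 1.3e-15), rose, and LCN2, the antimicrobial lipocalin (-5.08 ± 0.35, edgeR adjusted p = 6.1e-12), and S100A9, a calprotectin chain (-1.57 ± 0.60, edgeR adjusted p = 0.03), fell. In Kyse30, 12 of 15 rose (8.1% of all genes) and none fell (4.76%), with a median of 2.47 against 0.03. Without the 3 libraries that stood apart 11 of 16 rose (13.6% of all genes) and none fell (10.1%), with a median of 2.27. Under MEK inhibition in FaDu, 10 of 14 were lower than in non-invasive cells, where 14.9% of all genes were lower and 14.8% higher, and LCN2 and S100A9 were higher (2.58 ± 0.36 and 3.82 ± 0.56), as KRT16 and KRT17 were. In Kyse30, 4 of 15 were lower with the MEK inhibitor (2.91% of all genes) and 8 of 15 with cetuximab (3.08%), and none was higher (1.65% and 1.85%). These counts were 6 and 7 of 16 without the 3 libraries (5.84% and 5.94% of all genes). In FaDu 6 of 14 were lower with cetuximab (4.93% of all genes) and none higher (3.64%). Between invasive and non-invasive cells, 1 of 14 was lower in FaDu, LCN2 (-3.30 ± 0.70), where 2.34% of all genes were lower and 0.659% higher, and none was higher. In Kyse30 1 of 15 was higher (0.0668% of all genes) and 1 lower (0.342%), the latter LCN2 (-3.57 ± 0.80). With those 3 libraries left out, 1 of 16 was higher and none lower, and LCN2 was at -1.34 ± 0.81 (edgeR adjusted p = 0.65).

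Among the proteins that bind keratin filaments or anchor them at desmosomes and hemidesmosomes, 8 of 24 rose and 7 fell with EGF in FaDu, where 25.3% of all genes rose and 24.7% fell. PKP2, a desmosomal plakophilin (2.07 ± 0.18, edgeR adjusted p = 3.8e-10), and SFN, the 14-3-3 protein that binds KRT17 and KRT18 (2.21 ± 0.19, edgeR adjusted p = 1.2e-09), rose, and DSC3, a desmosomal cadherin (-1.61 ± 0.16, edgeR adjusted p = 4.7e-09), and the protease CAPN1 (-0.99 ± 0.11, edgeR adjusted p = 5.8e-08) fell. In Kyse30, 6 of 25 rose (8.1% of all genes) and none fell (4.76%), with VIM, the intermediate filament protein of mesenchymal cells (6.61 ± 0.68, edgeR adjusted p = 3.8e-07), and SFN (2.35 ± 0.25, edgeR adjusted p = 6.9e-07) in front. VIM was lower again with cetuximab (-3.79 ± 0.50) and with the MEK inhibitor (-5.20 ± 0.57). Without the 3 libraries that stood apart 11 of 25 rose with EGF, where 13.6% of all genes did. VIM was then at 6.81 ± 0.66 with EGF, -3.99 ± 0.48 with cetuximab and -5.38 ± 0.54 with the MEK inhibitor, and SFN at 2.66 ± 0.22 with EGF, all called by edgeR. Of invasive FaDu cells, EPPK1, the keratin-bundling epiplakin (-1.67 ± 0.20, edgeR adjusted p = 1.1e-05), and DSC2, a desmosomal cadherin (-0.59 ± 0.15, edgeR adjusted p = 0.022), were lower, 2 of 24 where 2.34% of all genes were lower, and none was higher (0.659%).

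Of the transcription factors that control keratin genes in epithelia, 5 of 26 rose and 9 fell with EGF in FaDu, where 25.3% of all genes rose and 24.7% fell. In Kyse30 5 of 25 rose and 3 fell, where 8.1% rose and 4.76% fell, and the counts were 5 and 3 of 25 also without the 3 libraries that stood apart (13.6% and 10.1%). ETS1 rose in both (4.08 ± 0.30 in FaDu and 2.35 ± 0.63 in Kyse30), as did FOSL1, an AP-1 subunit (3.96 ± 0.51 and 2.43 ± 0.44), and ELF3, an ETS factor of differentiated epithelia, fell in both (-2.93 ± 0.22 and -1.46 ± 0.24). The Kyse30 values without the 3 libraries were 2.28 ± 0.49 for ETS1, 2.32 ± 0.50 for FOSL1 and -1.60 ± 0.26 for ELF3. Under MEK inhibition in FaDu, ELF3 (2.36 ± 0.22) and NFE2L2, which encodes the oxidative stress factor NRF2 (0.71 ± 0.11), were higher than in non-invasive cells, among 6 higher and 5 lower of 26 (14.8% and 14.9% of all genes). ELF3 was lower in invasive FaDu cells (-1.31 ± 0.22), together with JUND, another AP-1 subunit (-1.37 ± 0.30), 2 of 26 where 2.34% of all genes were lower. Values in these sentences are log2 fold changes with standard errors, and all passed edgeR's test.

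The genes whose levels were most like each keratin were found by the smaller of the Pearson correlations over the 20 FaDu and over the 20 Kyse30 libraries, on log2(CPM + 1), among 10409 protein-coding candidates. The libraries share treatment groups, so these values describe the groups as much as the libraries. KRT6A was closest to MT2A, a metallothionein (0.94 in FaDu and 0.92 in Kyse30), and to ABL2, a tyrosine kinase (0.91 and 0.92). KRT18 was closest to CDCP1, a cell surface glycoprotein (0.92 and 0.93), and to PSMB7, a proteasome subunit (0.96 and 0.92). KRT8 was closest to ADK, adenosine kinase (0.82 and 0.94), and to FERMT1, the gene of the focal adhesion protein kindlin-1 (0.81 and 0.84). KRT7 was closest to ETHE1 (0.83 and 0.96) and LRFN3 (0.87 and 0.81), and KRT19 to BLVRA (0.79 and 0.74). In Kyse30, KRT7 had 2.15 CPM, from 1 count, in the shallow invasive library and 35.4 CPM or more in every other library. How far that library sets the Kyse30 correlations of KRT7 was not tested. For KRT16 (CDKN2B, 0.70 and 0.71, and ZNF195, 0.71 and 0.67) and KRT17 (MAP4, 0.70 and 0.70, and NLRC5, 0.67 and 0.70) no candidate reached 0.70 in both lines beyond rounding.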

How the data were processed

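Lexogen QuantSeq 3′ mRNA-Seq V2 libraries of 2 lines were analysed, 4 per group and 40 in all. The authors deposited read counts per gene, whole numbers with no normalization, for 12655 genes. The submitters' processing notes list STAR, HTSeq and GRCh38; their versions and how strand was treated were not given in the sources used here. No molecular identifiers are mentioned, and intervals cover counting error only. Genes were filtered with edgeR's filterByExpr (minimum count 10) within each line, scaled by TMM and tested with edgeR 4.0.16 (R 4.3.3) in 1 quasi-likelihood fit of 20 libraries per line, without covariates, for 7 comparisons. A fit of 40 libraries gave 4 differences between lines and the serum-free contrast. p-values were Benjamini-Hochberg adjusted over all genes tested. A library stood apart if its total was under 1/3 of its line's median or its MALAT1 share over 3 times the median. Alternatives were DESeq2 1.42.0, limma 3.58.1, DESeq2's size factors, no filter, pseudogene counts added, a replicate block, only the groups compared, and libraries left out. Leaving out the libraries that stood apart was extended to the gene lists after seeing the data. The fits were tested on simulated data. Replicates of a group differed by more than sampling noise, with a chi-square per degree of freedom of 2.39 to 63.6 over 60 pairs. The members and lists were chosen with earlier results of these data known. Named genes are the 7 keratins, for each the 2 most alike genes, and from each context list up to 2 genes per direction with the smallest adjusted p, save that a gene so named was followed into other comparisons and that some genes the rule picks are not reported here. Transcript sequences were taken from GENCODE release 29 on GRCh38, the principal transcript with the longest coding part per gene.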

Additional observations from a re-analysis of the deposited data

Results flagged for a closer look

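In 6 of the 70 sets of 4 libraries, 1 library lay far from the other 3. For normally distributed values chance alone gives about 1 in 20. That rate does not hold for sets of few counts, such as KRT6A in serum-free FaDu, so the 6 sets are not weighed against it. KRT16 in Kyse30 non-invasive replicate 1 was at 45.3 CPM (144 counts), against 6.99 to 8.88 CPM in the others, and this library also stood apart by its MALAT1 share. KRT6A in FaDu invasive replicate 4 was at 26.8 CPM against 15.1 to 15.3 CPM. KRT6A in FaDu serum-free replicate 4 was at 0.504 CPM (2 counts), with no count in the others. KRT6A in Kyse30 cetuximab replicate 2 was at 6.44 CPM against 1.24 to 2.00 CPM. KRT7 was at 457 CPM in FaDu cetuximab replicate 2 against 334 to 338 CPM, and at 414 CPM in FaDu serum-free replicate 3 against 369 to 375 CPM.

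In 7 cases the effect of a treatment differed between the lines by the test of the difference itself, given as the log2 effect in Kyse30 minus that in FaDu. With EGF the difference was -3.79 for KRT6A, 1.40 for KRT8 and 1.80 for KRT19. Between invasive and non-invasive cells it was 2.25 for KRT17. With the MEK inhibitor it was -4.91 for KRT16, -2.58 for KRT17 and -1.15 for KRT19.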

How the results depend on the processing

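The number of members called stayed within 1.5 times its value in 280 of 324 alternative counts and moved further in 44. No called log2 fold change reversed. Of 336 called values under other settings 13 lost the call, and of 432 with 1 library left out 67 did. Counts of members that moved were, with DESeq2, 1 for Kyse30 invasive against non-invasive (KRT17), 5 for the line difference with EGF and 1 for that with cetuximab. With limma they were 1 for Kyse30 invasive against non-invasive (KRT6A) and 0 for the line difference in invasive cells. Without the libraries that stood apart they were 4 for Kyse30 cetuximab against non-invasive, and 2 each for cetuximab and for the MEK inhibitor against serum-free. With only the groups compared, Kyse30 cetuximab against serum-free gave 2. With 1 library left out the counts ran from 3 to 5 for FaDu non-invasive against serum-free, 1 to 2 for invasive against non-invasive, 1 to 3 for cetuximab against non-invasive, and 1 to 4 for the MEK inhibitor against serum-free. In Kyse30 they ran from 0 to 3 for invasive against non-invasive, 1 to 3 for the MEK inhibitor against non-invasive and 0 to 1 for cetuximab against serum-free. For the line differences they ran from 0 to 2 in invasive cells and 0 to 1 with cetuximab. The cause was not tested.

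Replicate numbers did not pair the libraries: deviations of same-numbered libraries correlated above 0.1 in 14 of 80 pairs, from -0.206 to 0.366. With the replicate number as a block, the count was 1 for FaDu MEK inhibitor against serum-free and 1 for the line difference with cetuximab, and the other counts stayed within 1.5 times. Under the block the calls of KRT6A and KRT7 for FaDu MEK inhibitor against serum-free (edgeR adjusted p of 0.055 and 0.063) and of KRT16 for FaDu MEK inhibitor against cetuximab (0.066) were outside the threshold. Other library sizes moved 8 of 140 group levels by more than 1 SD, to 0.884 to 1.13 times the level. Depth limits KRT17 in Kyse30, which had 7 to 12 counts per group outside EGF alone, and KRT6A in serum-free FaDu, which had 2.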
